A study of Mus musculus with 2 samples.

Results

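The CIDE proteins, the perilipins and the FIT proteins are encoded by 10 mouse genes of the lipid droplet: Cidea, Cideb and Cidec, Plin1 to Plin5, and Fitm1 and Fitm2. They were taken by gene symbol or synonym from the platform annotation of an Affymetrix array, in which 9 of the 10 genes had a probe set with a single gene symbol, 10 probe sets in all, among 18193 genes and 45101 probe sets. Plin1, the coat protein that guards the droplet of fat cells from lipolysis, was not matched to a probe set, so its expression is not analysed here. Livers of mice with the genotype Lpcat3fl/fl Albumin-Cre, called L-Lpcat3 KO, were compared with livers of Lpcat3fl/fl control mice, which carry the same floxed alleles without Cre. All mice were males of 16 weeks that had eaten a western diet since they were 7 weeks old, 9 weeks in all, and livers were taken after a fast of 6 hr. The albumin promoter drives Cre in hepatocytes, so the other cells of the liver keep Lpcat3, and an effect of the Cre transgene itself cannot be told apart from the loss of Lpcat3. RNA of 5 mice was pooled on 1 array per genotype. A pool is a single sample, so no difference below has a replicate check, no test between genotypes was made, and the number of mice behind a difference is not known.

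A lipid droplet is a core of triglyceride and cholesteryl ester under a single layer of phospholipid, and it arises in the membrane of the endoplasmic reticulum. FIT proteins act in that membrane when droplets bud, perilipins coat the droplet surface and govern the access of lipases, and CIDE proteins sit where droplets touch and pass lipid from the smaller to the larger one. In hepatocytes the droplet is also a store from which triglyceride is drawn for very low-density lipoprotein (VLDL). Cidea is known best from brown fat and Cidec (also Fsp27) from white fat, and both are known to appear in fatty liver, whereas Cideb and Plin2 belong to the ordinary hepatocyte.

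The levels below are MAS5 signal intensity on a linear scale, scaled by the authors to a trimmed mean of 500 on each array. The median signal was 90.0 on the L-Lpcat3 KO array and 83.1 on the control array. Values below the median of both arrays together, 86.6, were raised to that floor before the log2 ratio (L-Lpcat3 KO divided by control) was taken, and a gene counted as measured when it reached the floor on at least 1 array. All 9 matched members were above the floor on both arrays. Each probe set has its own affinity, so levels are compared between genotypes and not between genes. The brightest probe set of a list serves only to choose a gene to name, and the summed signal of a marker list gives most weight to its brightest probe sets. Among probe sets of the same gene the pooled SD of the log2 ratio was 0.31 over 5228 genes, which is given as a yardstick of measurement spread that leaves out the spread between mice. Lpcat3 itself had a signal of 2198 in L-Lpcat3 KO liver and 5173 in control liver, a log2 ratio of -1.23. Of 7 matched hepatocyte markers all were measured and none differed by 2-fold.

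The 3 CIDE genes stood at opposite ends of the family, so the RefSeq promoters of Cidec and Cideb are shown here as the 250 bases before each annotated start (GRCm38.p6, 5′ to 3′ on the strand of the gene). Capitals mark the match to a C/EBP-like motif, and lower case the rest. Cidec has 2 annotated starts 996 bases apart, and the array values do not separate transcripts from them.
Cidec, upstream start, chr6:113435761-113436010, minus strand: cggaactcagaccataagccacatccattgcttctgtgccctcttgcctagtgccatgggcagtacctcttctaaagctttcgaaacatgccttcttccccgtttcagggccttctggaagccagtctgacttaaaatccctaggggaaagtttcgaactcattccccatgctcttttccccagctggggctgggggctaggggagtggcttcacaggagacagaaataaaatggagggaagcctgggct
Cidec, downstream start, chr6:113434765-113435014, minus strand: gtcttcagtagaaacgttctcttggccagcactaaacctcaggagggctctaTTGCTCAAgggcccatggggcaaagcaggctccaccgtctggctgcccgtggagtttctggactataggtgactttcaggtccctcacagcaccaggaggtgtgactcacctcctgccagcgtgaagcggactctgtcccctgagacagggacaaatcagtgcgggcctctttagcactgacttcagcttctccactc
Cideb, chr14:55758425-55758674, minus strand: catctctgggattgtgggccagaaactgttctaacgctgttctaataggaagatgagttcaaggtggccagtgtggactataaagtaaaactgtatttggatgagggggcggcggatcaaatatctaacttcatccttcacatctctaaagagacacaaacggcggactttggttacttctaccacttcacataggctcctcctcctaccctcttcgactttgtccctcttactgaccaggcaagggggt
The promoter of Cidea is not shown. The windows searched ran from 250 bases before to 50 after the start and numbered 11 for the 9 members other than Cidea. The C/EBP-like motif (TTGCNNAA, either strand) matched once in Cidec, from position -198 to -191 before its downstream start, and at a pair of places in Plin1, from -187 and from -58. It is present in 10.8% of all 32851 windows. The E-box CACGTG, which reads the same on both strands, was found in Plin2 alone among the members, from position -4 to 2 across the start, and in 7.15% of all windows. The DR1 layout of the PPAR/RXR element (NGGNCA in 2 copies in 1 direction with 1 base between, either strand) was found in none of the 11 member windows and in 2.07% of all windows. None of these motifs overlapped another. A match is a run of letters and not a binding site, and a missing match concerns these windows only.

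Cidea and Cidec were higher in L-Lpcat3 KO liver, 12.5-fold and 5.35-fold, and the third CIDE gene was not. Cidea, whose protein joins and enlarges droplets, had a signal of 4738 in the L-Lpcat3 KO pool and 380 in the control pool. This is a 12.5-fold difference, a log2 ratio of 3.64 on its single probe set (1417956_at). Only 1 of the 12290 measured genes had a higher ratio, with lower bounds of genes below the floor on the control array taken as they stand. Cidec, which drives the fusion that makes the large droplet of white fat, had a signal of 3659 in the L-Lpcat3 KO pool and 684 in the control pool. The difference was 5.35-fold, a log2 ratio of 2.42 on the probe set 1452260_at. It ranked at place 7 of the 12290 genes, again with lower bounds taken as they stand. Further genes below the floor in control liver could therefore stand above it. The study shows both genes in its own selection from these arrays, so their direction is not independent evidence. Cideb, the CIDE protein of hepatocytes, which acts in loading lipid onto VLDL, had a signal of 10872 in L-Lpcat3 KO liver and 12514 in control liver. Its log2 ratio was -0.20, smaller in size than the spread among probe sets of a gene, on a probe set (1418976_s_at) of a type that may match more than 1 transcript. Between Cidea and Cideb the log2 ratios lay 3.84 apart, and between Cidec and Cideb 2.62.

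**Figure D1:**
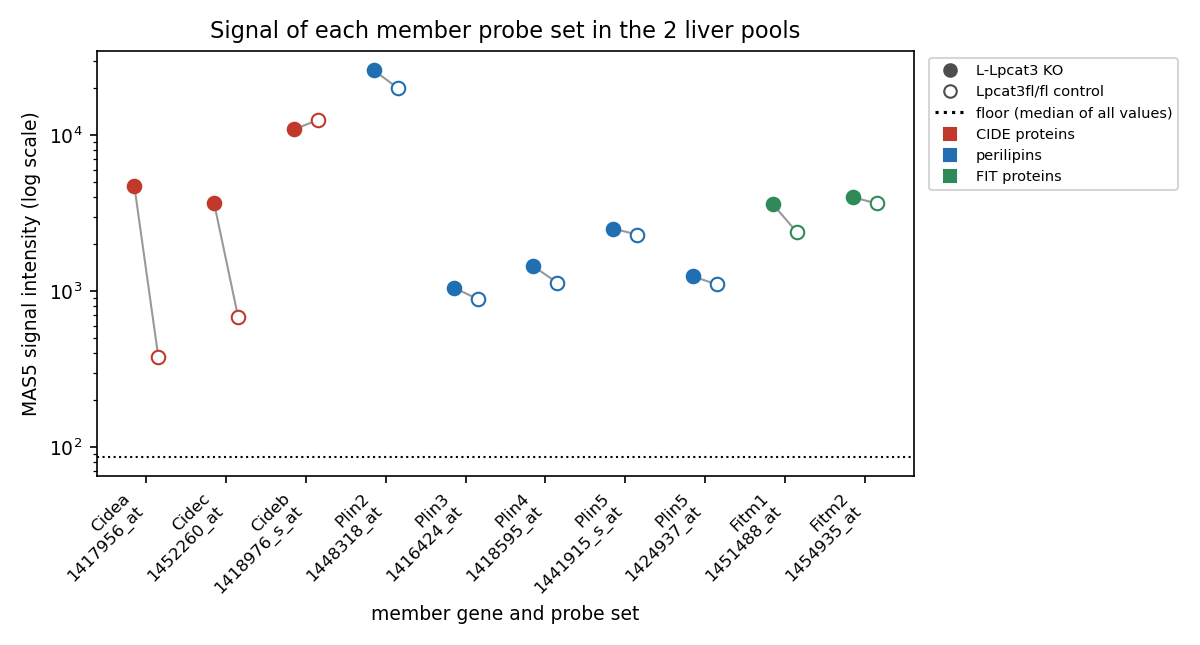
MAS5 signal intensity (log scale) of each member probe set in the L-Lpcat3 KO pool (filled) and the control pool (open), 1 array each, with the floor of 86.6 dotted. Cidea and Cidec show the steep lines, 4738 against 380 and 3659 against 684, while the other lines are flatter and Cideb alone slopes the other way.

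The perilipins were all slightly higher in the L-Lpcat3 KO pool, and none reached 2-fold. Plin2, the main coat protein of droplets in hepatocytes, had a signal of 26132 in L-Lpcat3 KO liver and 20017 in control liver, a log2 ratio of 0.38 and the highest of the 4 measured perilipins. Plin4, a coat protein known from nascent droplets of fat cells, was at 1441 in L-Lpcat3 KO liver and 1130 in control liver, a log2 ratio of 0.35. As reported, these 2 ratios exceeded the pooled SD among probe sets of a gene and the ratios of the others did not. When each array was centred on its median, Plin2 was at 0.27 and Plin4 at 0.24, both below that SD. Under every other alternative setting both stayed above it. Plin3 (also Tip47), which moves between cytosol and droplets, was at 1053 in L-Lpcat3 KO liver and 889 in control liver, a log2 ratio of 0.25. Plin5, the perilipin of oxidative tissues that brings droplets to mitochondria, had 2 probe sets that gave like ratios. The representative one (1441915_s_at) was at 2513 in L-Lpcat3 KO liver and 2300 in control liver, a log2 ratio of 0.13, and the other (1424937_at) at 1240 in L-Lpcat3 KO liver and 1102 in control liver, a log2 ratio of 0.17. The ratios of the 4 perilipins spanned 0.26 on the log2 scale, less than the pooled SD among probe sets of a gene. Plin4 and Plin5 are neighbours on the chromosome, with no other protein-coding gene between their starts.

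Of the FIT genes Fitm1 had the larger ratio. Fitm1, known as the form of striated muscle, had a signal of 3603 in L-Lpcat3 KO liver and 2384 in control liver, a log2 ratio of 0.60 (1.51-fold). It was the only further member past 1.5-fold, a threshold that 9.07% of measured genes passed in the same direction. Fitm2, the more widely expressed form, was at 3999 in L-Lpcat3 KO liver and 3645 in control liver, a log2 ratio of 0.13. The distance between the 2 ratios was 0.46. Of 6 striated muscle markers 5, Acta1, Myh1, Myh4, Tnnt3 and Mb, were below the floor on both arrays, and Ckm was at 91.0 in L-Lpcat3 KO liver and 123 in control liver. The summed signal of the 6 was 205 in L-Lpcat3 KO liver and 307 in control liver.

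Counted together, 2 of the 9 measured members passed 2-fold upward in L-Lpcat3 KO liver, as did 2.7% of all measured genes, and no member passed 2-fold downward, as did 0.7% of all measured genes. The order of ratios ran from Cidea through Cidec, Fitm1, Plin2, Plin4, Plin3, Fitm2 and Plin5 to Cideb. A gap of 1.22 on the log2 scale separated Cidea from Cidec and a gap of 1.82 separated Cidec from Fitm1, whereas neighbours from Fitm1 down lay closer together than the yardstick of 0.31 except Plin5 and Cideb, which were 0.33 apart. The members' median log2 ratio was 0.35, and 0.25 without Cidea and Cidec, against 0.01 over all measured genes. The quartiles of the log2 ratio over all measured genes were -0.18 and 0.24. The members were chosen with earlier results of these data known, so neither the count nor the medians are independent evidence.

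**Figure D2:**
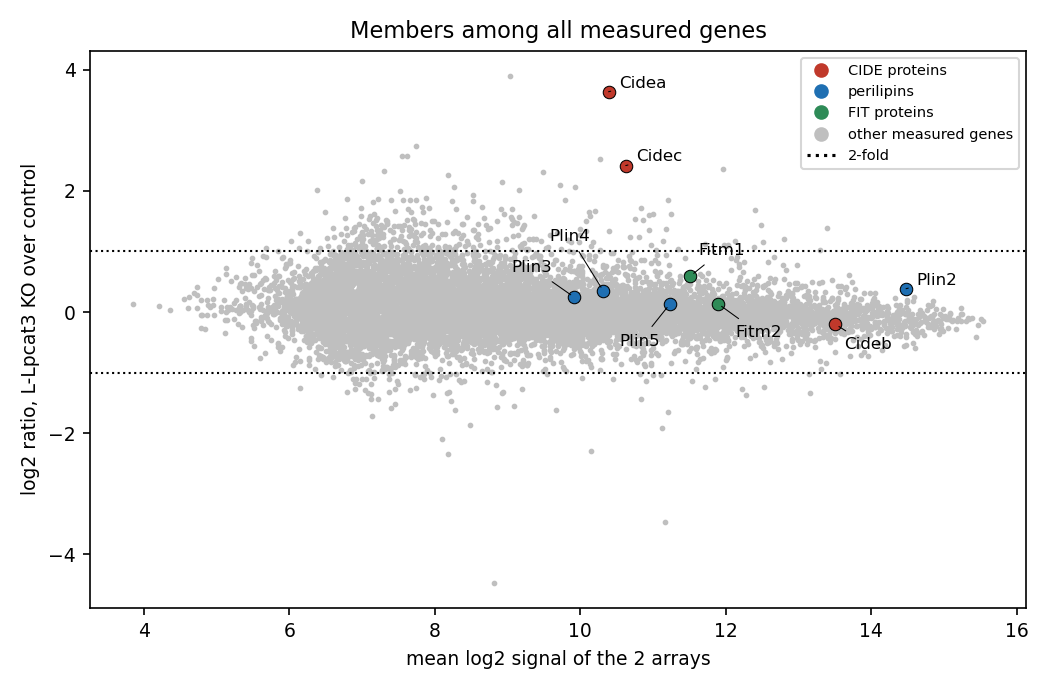
Log2 ratio (L-Lpcat3 KO divided by control) against the mean log2 signal of the 2 arrays, 1 point per measured gene, with 2-fold dotted. Cidea (3.64) and Cidec (2.42) lie far above the cloud, and the other 7 members lie inside it between -0.20 and 0.60.

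The genes with ratios most like those of Cidea and Cidec were found by the difference in log2 ratio among genes above the floor on both arrays, a likeness that rests on 2 arrays alone and says nothing of function. For Cidea these were the immunoglobulin genes Igkv8-30 (2034 in L-Lpcat3 KO liver and 136 in control liver, log2 ratio 3.90, on a probe set that may cross-hybridise) and Ighm (2975 in L-Lpcat3 KO liver and 518 in control liver, 2.52). For Cidec they were the tubulin gene Tubb2a (9095 in L-Lpcat3 KO liver and 1760 in control liver, 2.37) and the immediate early gene Egr1 (1611 in L-Lpcat3 KO liver and 322 in control liver, 2.32). Cidec was within 0.10 of both of its neighbours, while the difference from Cidea was 0.26 for Igkv8-30 and -1.12 for Ighm. Genes beside the members on the chromosome were looked up after the values were seen. Of 18 such protein-coding genes that are no member, 12 were measured and none differed by 2-fold, with log2 ratios from -0.36 to 0.51. Those flanking Cidec were Rpusd3 at -0.36 and Jagn1 at -0.10, and the measured neighbour of Cidea was Tubb6 at 0.51.

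No gene of the other droplet-bound proteins reached 2-fold in either direction. All 14 genes of this list were measured, and their median log2 ratio was 0.01. The highest was Hilpda, an inhibitor of the triglyceride lipase ATGL, at a signal of 301 in L-Lpcat3 KO liver and 156 in control liver (log2 ratio 0.95). G0s2, which inhibits the same lipase, was at 0.02, and Hsd17b11, a droplet dehydrogenase and the gene with the brightest probe set of the list, at -0.04, with 0.55 on its other probe set. Hsd17b13, a related droplet enzyme of liver, was at 0.21 on its representative probe set and -0.34 on the other.

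Among genes that act in the endoplasmic reticulum to form droplets and their lipid, 10 of 12 were measured, 2 were at least 2-fold higher, none was lower by 2-fold and the median was 0.41. Mogat1, which makes diacylglycerol from monoacylglycerol, was at 987 in L-Lpcat3 KO liver and 364 in control liver (log2 ratio 1.44). Tmem159 (also Ldaf1), the partner of seipin at the site of droplet birth, was at 214 in L-Lpcat3 KO liver and below the floor in control liver, so that it was at least 2.46-fold higher. Bscl2, which encodes seipin itself, was at 0.04, and Gpam, the gene with the brightest probe set of the list, which starts glycerolipid synthesis, at 0.62. Acyltransferase genes of the last step did not share this, with Dgat1 at 0.10 and Dgat2 at -0.35 (0.01 on its other probe set).

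Among lipases of the droplet and their cofactors, 7 of 8 genes were measured, 1 was at least 2-fold higher, none lower, and the median was 0.20. The exception was Pnpla3, a droplet protein tied to fatty liver in humans, at 285 in L-Lpcat3 KO liver and 126 in control liver (log2 ratio 1.18). Pnpla2, which encodes ATGL, was at 0.18, its co-activator Abhd5 at 0.32, the hormone-sensitive lipase gene Lipe at 0.44, and Ces1d, the gene with the brightest probe set of the list, at -0.13, with -0.75 on the lowest of its 3 probe sets.

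PPARgamma is a nuclear receptor under which Cidea and Cidec are known to be transcribed in fat and fatty liver. Its gene Pparg was at 1056 in L-Lpcat3 KO liver and 468 in control liver (log2 ratio 1.17). It was the only one of 12 measured transcriptional regulators to reach 2-fold, and the median of that list was -0.08. Creb3l3, the liver factor known to drive Cidec, was at -0.10, Cebpb, the regulator with the brightest probe set, at 0.03, Ppara at 0.05 and Srebf1 at -0.03. Of 6 measured targets of PPARgamma in fatty liver 4 were at least 2-fold higher, none was lower by 2-fold and the median was 1.13. Several genes of this list are in the study's own selection from these arrays, so the count is not independent evidence. The 4 genes were Fabp4 (1.73, with 0.11 on the lowest of its 3 probe sets), Mogat1 (1.44, already counted above), the lipoprotein lipase gene Lpl (1.17) and the fatty acid translocase gene Cd36 (1.09, with 0.76 on the lowest of its 3 probe sets), which also had the brightest probe set of the list. Among 9 measured targets of PPARalpha 2 were at least 2-fold higher, Pdk4 (1.28) and the hormone gene Fgf21 (1.22). The median was 0.22, and Acadm, of the brightest probe set, was at 0.12. These values are of whole liver and do not show in which cells a gene was higher. The part of PPARgamma, or of any other regulator, in the ratios of Cidea and Cidec was not tested.

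**Figure D3:**
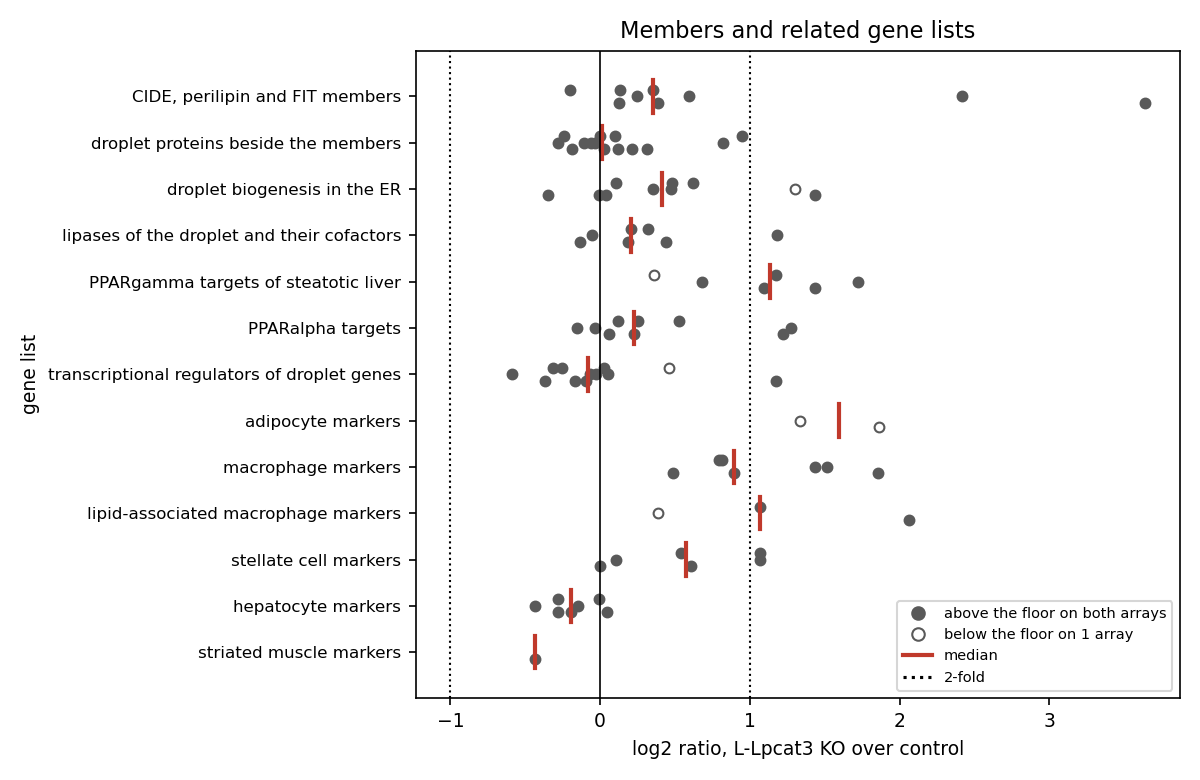
Log2 ratio (L-Lpcat3 KO divided by control) for each measured gene of the members and of related lists, with open points where 1 array was below the floor, red bars for medians and 2-fold dotted. As drawn, Cidea and Cidec lie to the right of every gene of the lists. Open points are lower bounds, because their control signal was raised to the floor, and may belong further right. Among them are Adipoq (314 in L-Lpcat3 KO liver and 38.9 in control liver) and Tmem159 (214 in L-Lpcat3 KO liver and 23.5 in control liver). Their order against Cidec is not resolved. The list medians run from -0.44 for the single measured muscle marker to 1.60 for the 2 measured adipocyte markers, both lower bounds.

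Cidea and Cidec are also genes of fat cells. In a whole liver, more cells of a type cannot be told apart from more RNA per cell, nor fewer from less. Of 7 adipocyte markers 5 were matched, and Adipoq and Retn were the 2 that reached the floor, both on the L-Lpcat3 KO array alone. Adipoq was at 314 in L-Lpcat3 KO liver and 38.9 in control liver, at least 3.63-fold higher, and Retn at 218 in L-Lpcat3 KO liver and 64.4 in control liver, at least 2.52-fold higher. Lep, Trarg1 and Ucp1 were below the floor on both arrays. The summed signal of the 5 matched markers was 636 in L-Lpcat3 KO liver and 148 in control liver. The part of fat tissue RNA in the ratios of Cidea and Cidec was not tested.

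Some markers of other liver cells were higher as well. All 7 macrophage markers were measured and above 0, 3 of them at least 2-fold higher (Lyz2, Cd68 and Marco, the last at 1.52 on its representative probe set and 0.55 on the other), with a median of 0.89 and a summed signal of 17537 in L-Lpcat3 KO liver and 8730 in control liver. Csf1r, the macrophage gene with the brightest probe set, was at 0.79, with its 3 probe sets from 0.58 to 1.16. Of 3 measured markers of lipid-associated macrophages 2 were at least 2-fold higher, Gpnmb (2.07) and Cd9 (1.07, with the brightest probe set), and the summed signal was 1585 in L-Lpcat3 KO liver and 586 in control liver. Of 6 stellate cell markers 2 were at least 2-fold higher, Col3a1 and Col1a1 (both 1.07), but their other probe sets, at 0.79 for Col3a1 and 0.47 for Col1a1, did not pass. The median was 0.57 and the summed signal was 21707 in L-Lpcat3 KO liver and 14172 in control liver. Lrat, which marks the retinoid droplets of quiescent stellate cells, was at 0.60, Dcn, with the brightest probe set, at 0.54, Des at 0.11 and Reln at 0.00. No marker of these 3 lists had a signal of 0, and Trem2 was below the floor in control liver. The 7 matched hepatocyte markers had a median of -0.20 and a summed signal of 184485 in L-Lpcat3 KO liver and 203739 in control liver, with Ttr, of the brightest probe set, at -0.15. The part of these cell types in the members' ratios was not tested.

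The ratios of the members were little moved by how the arrays were scaled, floored or reduced to 1 value a gene. As reported and over 9 alternatives Cidea ran from 3.37 to 3.65 and Cidec from 2.28 to 2.43. Plin2 ran from 0.27 to 0.48, Plin3 from 0.13 to 0.25, Plin4 from 0.24 to 0.36 and Fitm1 from 0.48 to 0.62. Plin5 and Fitm2 came close to 0 at their lowest, 0.01 and 0.02, and Cideb stayed below it, from -0.32 to -0.13. Cideb had no value without probe sets that may match several transcripts.

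**Figure D4:**
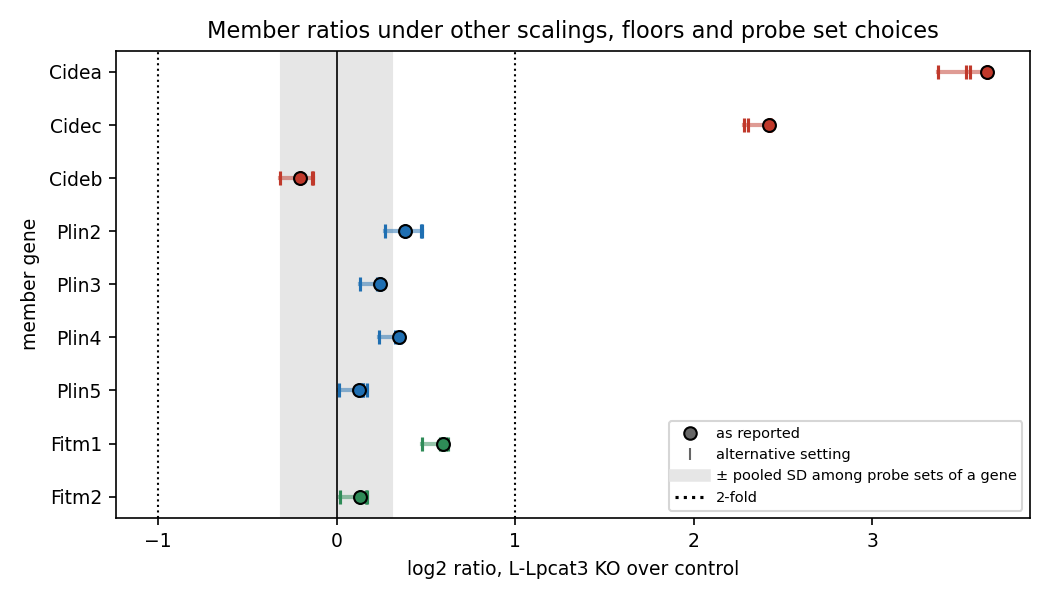
Log2 ratio (L-Lpcat3 KO divided by control) for each member as reported (circles) and under each alternative (ticks), with the pooled SD among probe sets of a gene of 0.31 to either side of 0 in grey and 2-fold dotted. Cidea and Cidec stay beyond 2-fold throughout, and Cideb, Plin3, Plin5 and Fitm2 keep their reported values inside the grey band.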

How the data were processed

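RNA of 5 mice per genotype was pooled and hybridised to 1 Affymetrix mouse genome array each. The deposited values are MAS5 signal intensity on a linear scale. The authors' processing notes name MAS5 without a version, and their methods name GenespringGX. Such scaling takes most transcripts to be equal between arrays, and low signals are the noisiest. Detection calls were not used here.

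Gene names came from the platform annotation and were brought up to date by gene identifier in RefSeq (GRCm38.p6). Of 45101 probe sets, 34945 had 1 symbol and were used, 932 had several and 9211 were unnamed here. Values below the median of all values were raised to it. The probe set with the highest mean log2 signal stood for its gene, which was called at 2-fold. The members and lists were chosen with earlier results of these data known. Genes named are all members, Lpcat3, list genes past 2-fold, the gene with the brightest probe set per list, and the genes nearest in ratio to called members. Other list genes were named after their values were seen. List genes not matched to a probe set with 1 symbol were not analysed here. The ratio and counting steps were run on simulated data. Known folds were given only to genes well above the floor, and only the median ratios were checked. The tools were Python 3.11.15 with pandas 2.3.3, numpy 2.4.6, statsmodels 0.14.6 (loess), scipy 1.17.1 and, for the plots, matplotlib 3.10.9.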

Additional observations from a re-analysis of the deposited data

How the results depend on the processing

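Arrays were also scaled by loess, quantile normalization or median centring. The floor was moved to the 75th or the 25th percentile, dropped, or replaced by a pseudocount. Probe sets of a gene were averaged, or those that may match several transcripts were left out, and thresholds of 1.5-fold and 3-fold were tried. Cidea and Cidec were called under each of them, no member was called lower, and Fitm1 was added at 1.5-fold. The count over all genes moved with the setting, from 332 higher and 86 lower to 1132 and 479 with a floor at the 25th percentile, 88 and 25 at the 75th, 654 and 242 with no floor, 194 and 48 with a pseudocount, 1115 and 471 at 1.5-fold and 55 and 11 at 3-fold. Median centring shifted the median of all genes to -0.10, and the higher share of calls to 64.7%, against 79.4% as reported. Of 106 alternative values of list medians 4 moved by more than the pooled SD among probe sets, all in the adipocyte and lipid-associated macrophage lists, in which 3 of the 5 measured genes are below the floor on 1 array. No paired analysis was possible because each genotype has 1 array, and no array could be left out. Differences near the floor and those smaller than the spread between mice cannot be resolved.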
